A study of Mus musculus with 6 samples.

Results

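The genes described here are 38 genes of the cell cycle and mitosis, out of 55487 gene IDs listed for the left ventricle of the mouse heart. They were chosen by name, as the IDs whose symbol equals a member of a fixed list, and each symbol matched a single ID. Bulk RNA sequencing covered 6 libraries from male C57BL/6 mice of 8 weeks, 3 per group, in a study of alcoholic cardiomyopathy. ET mice had 10 days of feeding on 5% ethanol, followed by a binge dose of ethanol given by gavage. CONT mice ate an isocaloric diet without ethanol for the same 10 days and received a gavage of maltose-dextrin, a sugar control. Ventricles of both groups were collected 9 h after the gavage, so the ET group combines sustained feeding with a recent binge and the design does not separate them. Whether the libraries of a group are from different mice is not stated in the labels, and p-values here reflect the spread among these samples alone, which may be technical.

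Cells that divide copy their DNA in S phase and separate the copies in mitosis, and the genes for these steps are switched on in waves. Cyclin E and E2F1 drive entry into S phase, the MCM helicase and PCNA carry out replication, and CDK1 with cyclins A and B drives mitosis, in which kinases, motor proteins and the kinetochore move the chromosomes. Most cardiomyocytes of the adult mouse have left the cell cycle, and the dividing cells of a healthy adult ventricle are mainly found among endothelial cells, fibroblasts and blood-derived cells. In bulk tissue, fewer dividing cells and less of an mRNA per dividing cell cannot be told apart.

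The libraries held from 28838386 to 37762233 expected counts (estimated read counts per gene). Markers of cardiomyocytes were abundant in all 6 libraries (10 genes, summed level from 37580 to 53020 TPM, a level scaled to transcript length and to the library). Some libraries stood apart in makeup. In ET replicate 1 and CONT replicate 3, 7 atrial markers summed to 14730 and 2182 TPM, against 100.1 to 490.7 in the other 4. In ET replicate 1, 7 mesothelial markers summed to 103.2 TPM against 3.15 to 13.2 elsewhere. In ET replicate 3, 8 neutrophil markers summed to 95.05 TPM against 2.41 to 18.6 elsewhere. The effective gene lengths in the files, which reflect the transcripts to which reads were assigned, also divided the libraries across the groups, into set 1, which holds CONT replicates 1 and 2 and ET replicate 1, and set 2, which holds CONT replicate 3 and both remaining ET libraries. What the sets stand for is not given in the labels.

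Cell cycle transcripts were scarce. Mean levels of the 38 members ran from 0.0467 TPM for Ttk, a mitotic checkpoint kinase, to 15.0 TPM for Pcna, the sliding clamp of DNA polymerases. The 12 members of G1/S entry and replication summed to 34.8, 27.1 and 32.5 TPM in CONT replicates 1 to 3 and 44.9, 32.0 and 29.6 TPM in ET replicates 1 to 3, so the groups overlapped. The 26 members of G2 and mitosis summed to 19.2, 17.0 and 10.5 TPM in CONT replicates 1 to 3 and 16.0, 9.52 and 4.75 TPM in ET replicates 1 to 3. Their sum was highest in CONT replicates 1 and 2 and lowest in ET replicate 3, with ET replicate 1 above CONT replicate 3.

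The comparison of ET with CONT asks whether transcripts of dividing cells differ in the ventricle after ethanol feeding and a binge. Estimates of the mitotic members were lower in ET, with a median log2 fold change of -0.90, while those of the G1/S and replication members lay on both sides of 0, with a median of -0.054. Between the library sets the mitotic members differed more, with a median log2 difference of set 2 from set 1 of -1.50. With the sets as a covariate their median for ET was -0.59. Single estimates of the 24 tested mitotic members ran from -1.77 (Top2a) to -0.14 (Anln). Mki67, the marker of proliferating cells, had -1.25 ± 0.47 (SE), Top2a, the topoisomerase that untangles chromosomes, had -1.77 ± 0.92, and Kif11, the motor that pushes spindle poles apart, had -1.21 ± 0.40. No member passed the test across all genes. By the quasi-likelihood test of edgeR, adjusted after Benjamini and Hochberg, 0 of 15727 genes (0%) had an adjusted p under 0.05, and the lowest adjusted p of a member was 0.515.

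Of the 38 members, 36 had enough counts to be tested. Bub1, a checkpoint kinase, and Ttk did not pass the filter, with at most 11 counts in any library. Of the 36, 30 had a log2 fold change below 0, where 48.1% of all tested genes did, and the median was -0.66 against 0.014 over all tested genes. Without the filter, 32 of all 38 were below 0, with a median of -0.68. All 24 tested mitotic members were below 0, and all 26 were in the fit without the filter (median -0.93). The members share libraries and may be transcribed in the same cells, so such a count is not one of separate results. An unadjusted p under 0.05 was reached by 2 members, Mki67 and Kif11, both lower in ET. With 4.46% of all genes lower in ET at that p, a count of 2 in 36 is near the background. In the other direction 0 members reached it (4.19% of all genes, and 8.65% in either direction). The groups did not overlap in CPM (counts scaled to the library size) for 1 tested member, Kif11, a smaller share than the 8.36% of all genes that were lower without overlap, and 0 members were higher without overlap (6.89% of all genes). DESeq2 called 0 of the 36 members, while it called 1.17% of all genes in either direction and 0.502% lower in ET.

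**Figure D1:**
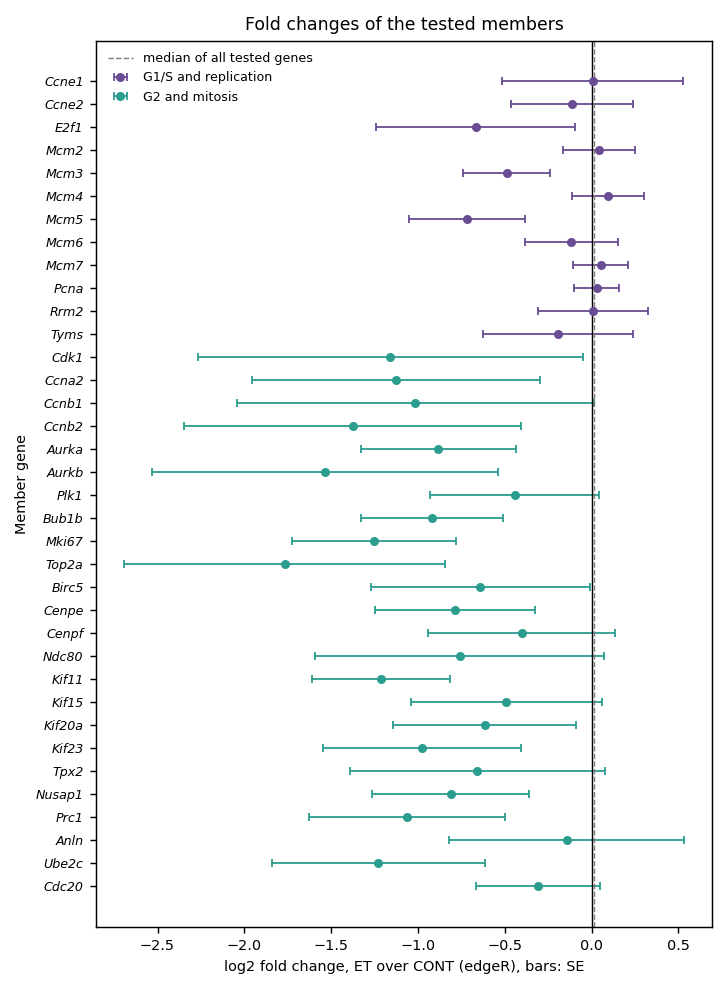
Log2 fold change of ET over CONT (x axis, edgeR estimate, bars are SE) for the 36 tested members, ordered by role, with the median of all tested genes as a dashed line. The 24 members of G2 and mitosis lie between -1.77 and -0.14, and the 12 of G1/S and replication between -0.72 and 0.093.

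Promoters of the mitotic members are shown beside those of replication genes, as background that does not bear on the differences between libraries. Mitotic promoters are known to carry a cell cycle genes homology region (CHR), which binds the MuvB complexes, and CCAAT boxes, which bind NF-Y, whereas promoters of replication genes carry E2F sites. RefSeq promoter windows of 300 bases (250 before and 50 after the start, GRCm38.p6) were found for 32 of the 38 members, and those of Ccne2, Mcm4, Ccna2, Aurkb, Kif20a and Tpx2 are not shown. Counts are of genes, and a gene was counted if any of its windows held the word. A CHR word (TTTGAA or TTCGAA, either strand) was found for 18 of 22 mitotic members (81.8%). It was found for 2 of 10 G1/S and replication members (20%) and for 21.7% of all 27025 genes with a window. A CCAAT word (either strand) was found for 17 of 22 mitotic members (77.3%), 7 of 10 G1/S and replication members (70%) and 41.1% of all genes. An E2F word (TTTCCCGC, TTTGGCGC, TTTCGCGC or TTTGCCGC, either strand) was found for 2 of 22 (9.09%), 4 of 10 (40%) and 2.60% of all genes. Both a CHR and a CCAAT word were found for 15 of the 22 mitotic members (68.2%) against 8.61% of all genes. A match is a run of letters and no measure of binding.

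The windows of 3 mitotic members and 2 replication members follow, 5′ to 3′ on the strand of the gene, with the words searched, in either strand, in capitals. They were picked as examples from the named members and do not stand for all windows. An E2F word was found for only 4 of 10 G1/S and replication members. Mcm2 and Mcm7, among those 10, held a CHR word, and a CHR word was found for 18 of 22 mitotic members.
Ccnb2: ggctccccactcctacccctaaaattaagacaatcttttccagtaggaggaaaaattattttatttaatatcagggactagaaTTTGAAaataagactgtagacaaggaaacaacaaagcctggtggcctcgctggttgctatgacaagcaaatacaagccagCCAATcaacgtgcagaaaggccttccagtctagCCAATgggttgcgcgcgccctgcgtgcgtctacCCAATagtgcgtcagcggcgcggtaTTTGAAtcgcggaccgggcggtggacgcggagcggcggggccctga
Top2a: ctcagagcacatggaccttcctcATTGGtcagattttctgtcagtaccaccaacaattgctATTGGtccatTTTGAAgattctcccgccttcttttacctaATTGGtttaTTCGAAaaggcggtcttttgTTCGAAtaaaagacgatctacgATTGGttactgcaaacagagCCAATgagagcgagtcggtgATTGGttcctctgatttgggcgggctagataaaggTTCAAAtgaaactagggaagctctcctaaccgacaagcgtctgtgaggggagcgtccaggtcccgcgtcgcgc
Kif11: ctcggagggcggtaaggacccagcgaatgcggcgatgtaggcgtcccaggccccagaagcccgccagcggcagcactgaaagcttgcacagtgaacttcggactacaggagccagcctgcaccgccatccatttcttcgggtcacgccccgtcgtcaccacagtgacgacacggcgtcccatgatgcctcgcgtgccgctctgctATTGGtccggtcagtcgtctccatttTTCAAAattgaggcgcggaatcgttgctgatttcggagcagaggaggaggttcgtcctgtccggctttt
Mcm3: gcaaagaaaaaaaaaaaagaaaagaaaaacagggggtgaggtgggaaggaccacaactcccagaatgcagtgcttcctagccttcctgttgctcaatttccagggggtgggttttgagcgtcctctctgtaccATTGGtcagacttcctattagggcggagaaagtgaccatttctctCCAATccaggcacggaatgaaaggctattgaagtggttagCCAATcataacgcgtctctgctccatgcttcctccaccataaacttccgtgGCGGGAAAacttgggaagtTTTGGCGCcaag
Mcm5: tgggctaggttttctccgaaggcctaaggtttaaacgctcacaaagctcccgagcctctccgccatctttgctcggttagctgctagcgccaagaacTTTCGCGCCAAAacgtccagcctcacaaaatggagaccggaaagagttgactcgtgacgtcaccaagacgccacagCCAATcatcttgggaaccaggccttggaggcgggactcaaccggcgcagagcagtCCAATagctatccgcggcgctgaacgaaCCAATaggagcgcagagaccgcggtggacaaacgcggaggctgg
The windows lie at chr9:70421505-70421804 (minus strand) for Ccnb2, chr11:99024140-99024439 (minus) for Top2a, chr19:37376132-37376431 (plus) for Kif11, chr1:20820263-20820562 (minus) for Mcm3 and chr8:75109259-75109558 (plus) for Mcm5. Ccnb2 has CHR words that begin 167 bases before and at base 5 after the start, with 3 CCAAT words between them. In Kif11 a CCAAT word on the opposite strand begins 45 bases before the start and a CHR word 19 bases before it. Top2a holds 4 CHR and 6 CCAAT words. Mcm3 and Mcm5 hold no CHR word and 2 E2F words each, and the pair in Mcm5 overlaps.

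The G1/S regulators were low in both groups, with mean levels from 0.298 to 0.583 TPM. E2f1, the transcription factor that switches on replication genes, stood at 0.44, 0.28 and 0.30 TPM in CONT replicates 1 to 3 and at 0.52, 0.16 and 0.09 TPM in ET replicates 1 to 3. Its lowest values were in ET replicates 2 and 3, while the highest was ET replicate 1 by TPM and CONT replicate 1 by CPM. The log2 fold change was -0.67 ± 0.58 (edgeR adjusted p 0.709). Ccne2, a cyclin E that activates CDK2, was at 0.65, 0.58 and 0.51 TPM in CONT and 0.85, 0.37 and 0.54 TPM in ET, with group means of 0.58 ± 0.070 and 0.587 ± 0.243 (SD, n = 3 per group). Its estimate was -0.12 ± 0.35 and changed sign with the scaling by library totals, and 17.4% of its exon bases overlap Ints8 on the opposite strand. Ccne1, the other cyclin E, had 0.0072 ± 0.52.

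The 9 replication members had mean levels from 0.765 to 15.0 TPM, with log2 fold changes from -0.72 to 0.093. Pcna (ENSMUSG00000027342, chromosome 2 at 132249162 to 132253314, minus strand, GRCm38) was at 14.7, 11.5 and 15.1 TPM in CONT replicates 1 to 3 and 18.3, 15.3 and 15.2 TPM in ET replicates 1 to 3, from 488 to 758 counts. By TPM each ET library was above each CONT library, the closest at 15.16 and 15.14, and in CPM the groups overlapped. Its log2 fold change was 0.029 ± 0.13, near 0 and below 0 with upper-quartile scaling. Mcm5, a subunit of the replicative helicase (ENSMUSG00000005410, chromosome 8 at 75109569 to 75128439, plus strand), was at 1.34, 1.12 and 1.41 TPM in CONT and 1.35, 0.77 and 0.56 TPM in ET. ET replicates 2 and 3 were below every CONT library and ET replicate 1 was not, and the estimate was -0.72 ± 0.33 (edgeR adjusted p 0.577). Mcm3, another helicase subunit, was at 2.78, 2.30 and 1.66 TPM in CONT and 3.16, 1.40 and 1.47 TPM in ET, with -0.49 ± 0.25. The other 4 helicase subunits, Mcm2, Mcm4, Mcm6 and Mcm7, had log2 fold changes from -0.12 to 0.093. Rrm2, a subunit of the enzyme that makes deoxyribonucleotides, had 0.0098 ± 0.32, and Tyms, which makes thymidylate, had -0.19 ± 0.43. Of the 9 replication members 4 were below 0, with a median of 0.0098.

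CDK1 and its cyclins had a median log2 fold change of -1.14 and a median log2 difference of set 2 from set 1 of -2.87. Cdk1, the kinase that drives mitosis (ENSMUSG00000019942, chromosome 10 at 69335146 to 69352938, minus strand), was at 1.31, 0.94 and 0.17 TPM in CONT replicates 1 to 3 and 1.34, 0.43 and 0 TPM in ET replicates 1 to 3. These rest on 42, 23 and 6 counts in CONT and 29, 6 and 0 counts in ET. ET replicate 3 was lowest, ET replicate 1 and CONT replicate 1 were near each other by TPM, CONT replicate 1 was highest by CPM, and the estimate was -1.16 ± 1.11. Ccna2, cyclin A2, was at 0.81, 0.53 and 0.26 TPM in CONT and 0.61, 0.21 and 0.04 TPM in ET, with -1.13 ± 0.83 and 12.5% of its exon bases overlapping Exosc9 on the opposite strand. Ccnb2, cyclin B2 (ENSMUSG00000032218, chromosome 9 at 70407692 to 70421547, minus strand), was at 0.55, 0.59 and 0.06 TPM in CONT and 0.44, 0.06 and 0.06 TPM in ET, with -1.38 ± 0.97 (edgeR adjusted p 0.661). Its libraries fell into 3 with 20 to 32 counts and 3 with 3 counts, and each set of 3 held both groups. Ccnb1, cyclin B1, had 0 counts in ET replicate 3, as did Cdk1 and Aurkb. A count of 0 in that library allows up to 3 counts, or 0.0976 CPM, and this floor covers counting error only.

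The mitotic kinases and checkpoint genes had log2 fold changes from -1.54 to -0.44 in the 4 tested of 6. Bub1b, the checkpoint protein BUBR1, was at 0.80, 0.32 and 0.22 TPM in CONT replicates 1 to 3 and 0.53, 0.25 and 0.17 TPM in ET replicates 1 to 3. The groups overlapped, CONT replicate 1 was the highest, and the estimate was -0.92 ± 0.41 (edgeR adjusted p 0.574). Aurka, the centrosomal Aurora kinase, was at 0.34, 0.52 and 0.29 TPM in CONT and 0.38, 0.18 and 0.17 TPM in ET, with group means of 0.383 ± 0.121 and 0.243 ± 0.119 (SD, n = 3 per group) and an estimate of -0.88 ± 0.45. Aurkb, the Aurora kinase of the chromosomal passenger complex, had the largest estimate of this role at -1.54 ± 0.998, on 27, 24 and 14 counts in CONT and 22, 3 and 0 in ET. Plk1, a kinase of mitotic entry, had -0.44 ± 0.48. The untested Ttk had 6, 7 and 5 counts in CONT and 4, 2 and 1 in ET, and Bub1 had 11, 7 and 1 in CONT and 5, 2 and 2 in ET.

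Among genes of chromosome structure and the kinetochore, Mki67 and Top2a were lower in ET on average. Mki67 (ENSMUSG00000031004, chromosome 7 at 135689784 to 135716361, minus strand) codes for Ki-67, which coats mitotic chromosomes, and was at 0.75, 0.62 and 0.31 TPM in CONT replicates 1 to 3 and 0.44, 0.22 and 0.17 TPM in ET replicates 1 to 3. The overlap came from CONT replicate 3, which lay below ET replicate 1. The edgeR estimate had an unadjusted p of 0.0321 and an adjusted p of 0.541. Top2a (ENSMUSG00000020914, chromosome 11 at 98992943 to 99024189, minus strand) was at 1.32, 0.98 and 0.30 TPM in CONT and 0.66, 0.14 and 0.02 TPM in ET, on 123, 83 and 31 counts and 63, 12 and 3 counts. ET replicates 2 and 3 were lowest and ET replicate 1 was above CONT replicate 3, and the adjusted p in edgeR was 0.587. Birc5 (survivin), Cenpe (a kinetochore motor) and Ndc80 (the kinetochore's microtubule anchor) had -0.64 ± 0.63, -0.79 ± 0.46 and -0.76 ± 0.83.

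Cenpf, a large kinetochore protein (ENSMUSG00000026605, chromosome 1 at 189640606 to 189688086, minus strand), did not follow the other mitotic members. It was at 3.18, 2.96 and 3.25 TPM in CONT replicates 1 to 3 and 0.23, 3.29 and 1.82 TPM in ET replicates 1 to 3, so that ET replicate 1 was lowest and the other 5 libraries lay between 1.82 and 3.29. Its estimate was -0.40 ± 0.54, and without ET replicate 1 it was 0.066. The effective length of Cenpf was 3336, 2821 and 3299 bases in CONT and 10886, 3876 and 5141 bases in ET. Transcripts of Cenpf in the GENCODE vM21 annotation span 358 to 11130 bases, so the length in ET replicate 1 was near that of the longest transcript and the lengths elsewhere were far shorter. At a given count, a shorter effective length gives a higher TPM, and in counts ET replicate 1 was also lowest, with 79 against 253 to 422.

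**Figure D2:**
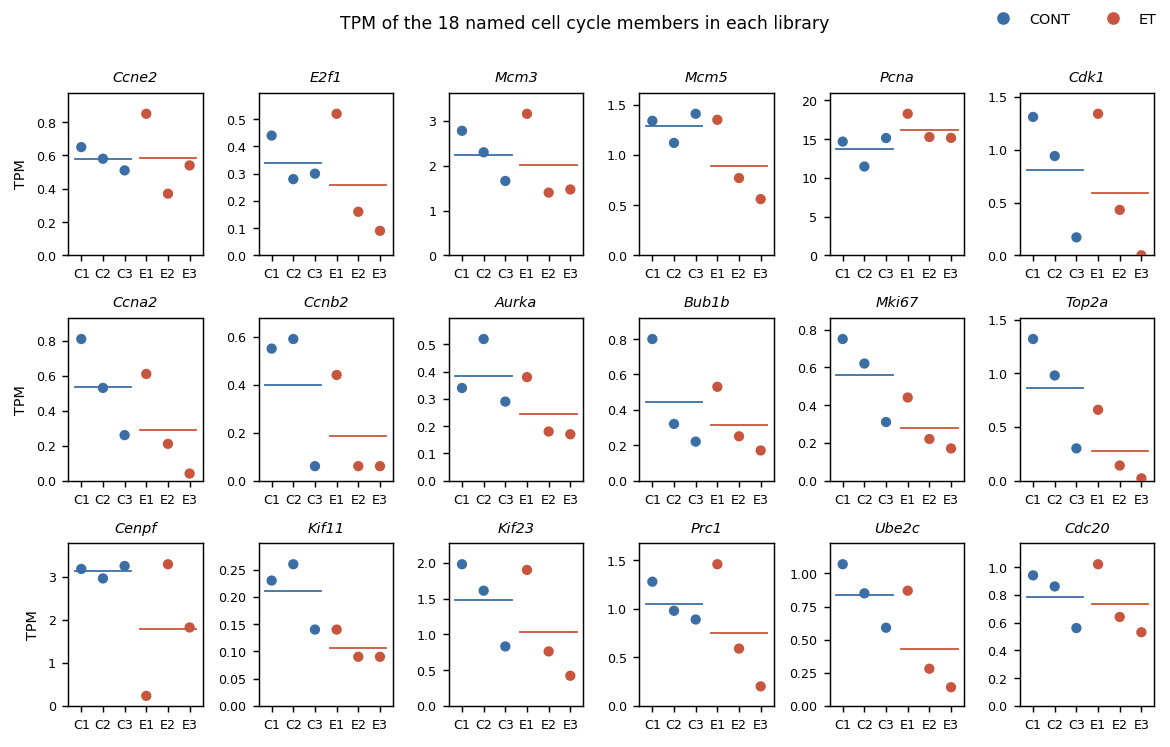
TPM (y axes, each from 0) of the 18 members named by rule in CONT replicates 1 to 3 (C1 to C3) and ET replicates 1 to 3 (E1 to E3), with group means as lines. Most mitotic members are high in C1, C2 and E1 and low in C3, E2 and E3, while Cenpf is low in E1 at 0.23 TPM.

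Spindle and cytokinesis genes held the member with the lowest p. Kif11 (ENSMUSG00000012443, chromosome 19 at 37376403 to 37421859, plus strand) was at 0.23, 0.26 and 0.14 TPM in CONT replicates 1 to 3 and 0.14, 0.09 and 0.09 TPM in ET replicates 1 to 3. These values rest on 44, 38 and 22 counts in CONT and 20, 14 and 14 in ET. The groups did not overlap in CPM (from 0.651 to 1.42 in CONT and from 0.412 to 0.533 in ET), and edgeR gave an unadjusted p of 0.018 and an adjusted p of 0.515. Prc1, which bundles microtubules of the central spindle, was at 1.28, 0.98 and 0.89 TPM in CONT and 1.46, 0.59 and 0.20 TPM in ET, with -1.06 ± 0.56 and 11.1% of its exon bases overlapping Rccd1 on the opposite strand. Kif23, a motor of cytokinesis, was at 1.98, 1.61 and 0.83 TPM in CONT and 1.90, 0.76 and 0.42 TPM in ET, with -0.98 ± 0.57. Its effective length of 673 to 964 bases lies far under its longest transcript of 3398 bases, and a short effective length gives a higher TPM at a given count. The other 5 genes, Kif15, Kif20a, Tpx2, Nusap1 and Anln, had estimates from -0.81 to -0.14, and Anln, a scaffold of the cleavage furrow, was highest in ET replicate 1 (0.90 TPM).

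The last role holds 2 partners of the anaphase-promoting complex, the ubiquitin ligase that ends mitosis, with a median log2 fold change of -0.77. Ube2c, its ubiquitin-conjugating enzyme, was at 1.07, 0.85 and 0.59 TPM in CONT replicates 1 to 3 and 0.87, 0.28 and 0.14 TPM in ET replicates 1 to 3, with -1.23 ± 0.61 (edgeR adjusted p 0.585). Of its exon bases 22.8% overlap Tnnc2, a skeletal muscle troponin gene on the opposite strand. Of 7 skeletal muscle markers, Acta1, which heart muscle also expresses, held 88.4% to 98.2% of the summed TPM, and the other 6 summed to 5.02, 4.27 and 3.8 TPM in CONT and 10.9, 2.25 and 2.21 TPM in ET. The part of reads from Tnnc2 in the value of Ube2c was not tested. Cdc20, its activator, was at 0.94, 0.86 and 0.56 TPM in CONT and 1.02, 0.64 and 0.53 TPM in ET, with -0.31 ± 0.36. Both were lowest in ET replicate 3 by TPM, and in both ET replicate 1 was above CONT replicate 3. Exon overlap with another gene was found for 10 of the 38 members, and the use of strand in counting is not given in the sources used here.

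The mitotic members followed the library sets more closely than the groups. In 20 of the 24 tested, every library of set 2 (CONT replicate 3, ET replicates 2 and 3) was below every library of set 1 by CPM, where 14.1% of all tested genes showed this, and the median log2 difference of set 2 from set 1 was -1.50 against -0.037 over all tested genes. Among the 12 G1/S and replication members this held for 3, with a median of -0.49. Within the sets, ET was lower than CONT in 21 of 24 mitotic members in set 1 (median log2 difference -0.54). In set 2 ET was lower in 20 of 24 (median -0.60). Over all tested genes, 50.9% were lower in set 1 and 51.1% in set 2, with medians of -0.010 and -0.0069. Set 1 holds 1 ET library and set 2 holds 1 CONT library, so these differences have no replicate check. When edgeR was fitted with the sets as a covariate, the mitotic median was -0.59 and that of all members -0.42, and 0 members were called. By CPM, ET replicate 3 was the lowest library of 17 of the 24 mitotic members, and CONT replicates 1 or 2 were the highest of 22. By TPM, CONT replicates 1 or 2 were the highest of 14 and ET replicate 1 of 8.

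**Figure D3:**
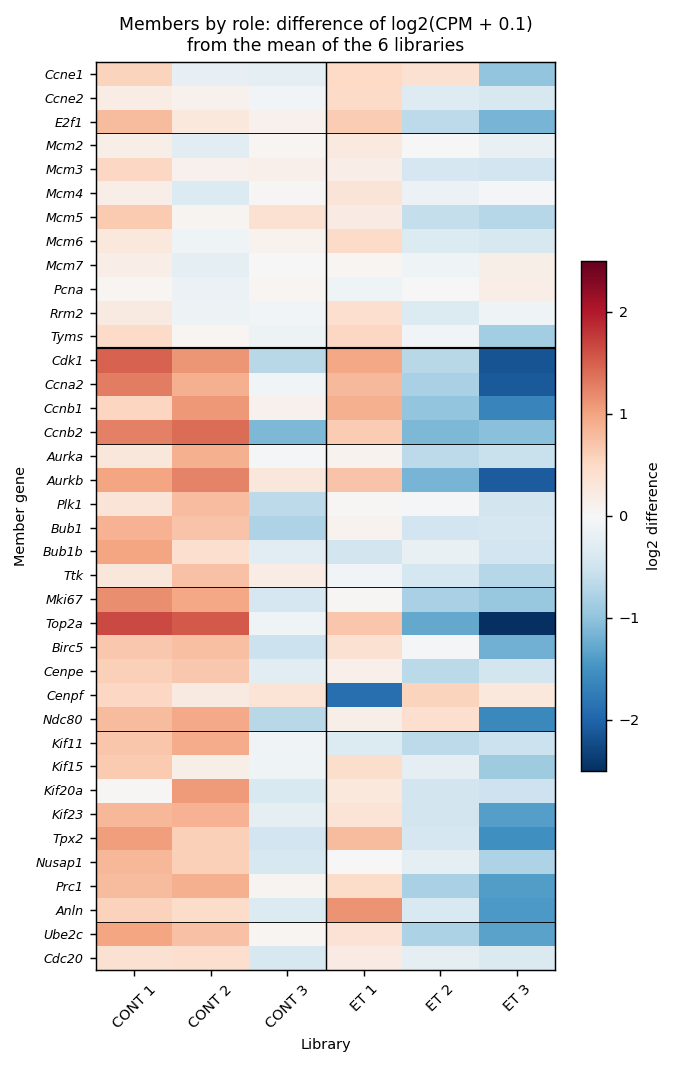
Difference of log2(CPM + 0.1) from the mean of the 6 libraries (colour, blue low and red high) for all 38 members (rows, grouped by role, thick line between replication and mitosis) in each library (columns). Below the thick line, CONT replicates 1 and 2 and ET replicate 1 are mostly red, ET replicate 3 is mostly blue, and Cenpf is reversed in ET replicate 1.

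Counts summed over the members gave the same order with small counting error. The 26 mitotic members took 46.3, 41.2 and 24.9 CPM, here of the unscaled library totals, in CONT and 31.2, 24.0 and 16.1 in ET, each in replicate order. Without Cenpf, left out after its values were seen, the other 25 took 35.2 (95% Wilson interval 33.3 to 37.1), 32.4 (30.4 to 34.6) and 14.6 (13.4 to 15.9) in CONT and 28.7 (26.9 to 30.6), 11.9 (10.8 to 13.2) and 7.18 (6.33 to 8.15) in ET. The intervals of sets 1 and 2 were far apart, and within set 2 CONT replicate 3 lay just above ET replicate 2. The 12 G1/S and replication members took from 50.6 to 80.4 CPM, highest in ET replicate 1. The intervals cover counting error only.

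**Figure D4:**
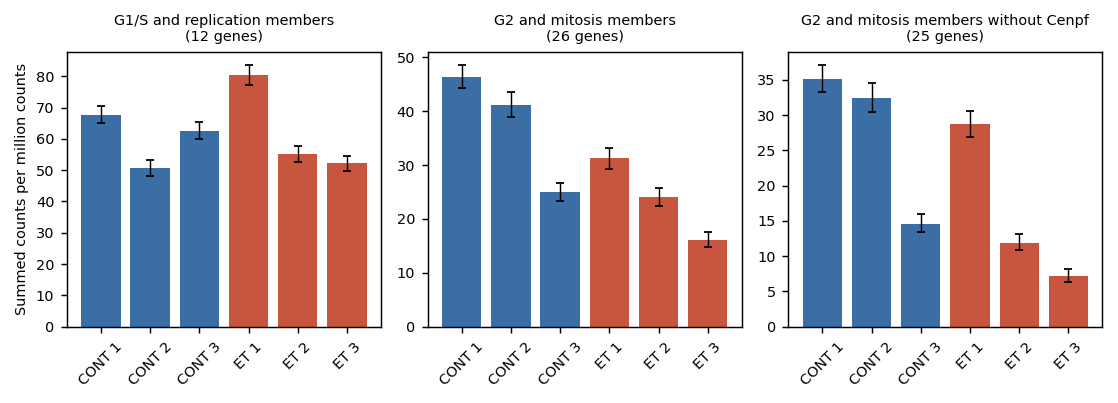
Summed CPM of library totals (y axis from 0) of the members of G1/S and replication, of G2 and mitosis, and of the latter without Cenpf, in each library, with 95% Wilson intervals. Without Cenpf the mitotic sum is 28.7 to 35.2 in set 1 and 7.18 to 14.6 in set 2.

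In a fit without CONT replicate 3 and ET replicate 1, whose atrial markers were highest, edgeR called 6 of 36 members (Aurkb, Ccna2, Ccnb2, Mki67, Prc1 and Top2a), all lower in ET, where 1.9% of all genes were called lower and 5.27% in either direction. The median over the members was then -1.33. The remaining CONT libraries are all of set 1 and the remaining ET libraries all of set 2, so that group and set cannot be told apart in that fit. Without ET replicate 1 alone, 18 of 36 members were lower at an unadjusted p under 0.05 (background 7.47%), the median was -1.05, and 0 passed adjustment in edgeR. The ET libraries left there are all of set 2, while CONT replicates 1 and 2 are of set 1. Group and set are thus largely mixed in that fit too. Without ET replicate 3 the median was -0.42.

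Marker lists of other cell types followed the library sets in part. The 9 endothelial markers summed to 469.5, 421.1 and 302.5 TPM in CONT replicates 1 to 3 and 587.2, 374.0 and 243.2 TPM in ET replicates 1 to 3, with each library of set 1 above each of set 2. Gene by gene this held by TPM for 5 of the 9, and 7 of the 9 had estimates below 0 for ET (median -0.18). Over all tested genes the share was taken by CPM only, at 14.1%. Of 6 adipocyte markers, only Fabp4, which endothelial cells also express and which held 88% to 99.9% of the sum, was higher in each library of set 1 than in each of set 2. The other 5 summed to 7.27, 0.6 and 27.2 TPM in CONT and 108.1, 1.59 and 1.35 TPM in ET, highest in ET replicate 1 and CONT replicate 3, and did not follow the sets. The 9 markers of T and B lymphocytes were near 0, at 1.22 to 1.65 TPM in set 1 and 0.31 to 1.0 in set 2. By TPM the sets were apart for 3 of the 9 genes, and 0 of 9 could be tested. Of 8 thymocyte markers, which would mark a dividing tissue near the heart, Rag1 and Rag2 had no count in any library and the sum was 0.29 to 0.68 TPM. Cd4 alone held 64.9% to 86.8% of that sum, and the rest of the list summed to 0.05 to 0.17 TPM. Fibroblast (8 genes) and macrophage (8 genes) markers were highest in ET replicate 1, at 1060 and 322.4 TPM against 279.9 to 398.1 and 96.0 to 120.3 TPM elsewhere. All 8 estimates of each list were above 0 for ET. Neither sum separated the sets, and by TPM the sets were apart for 1 of 8 fibroblast and 0 of 8 macrophage genes. The median log2 difference of set 2 from set 1 was -0.73 (fibroblast) and -0.33 (macrophage), beside -0.63 for the endothelial list. Dcn held 62% to 78.7% of the fibroblast sum. The part of these cell types in the mitotic values was not tested.

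**Figure D5:**
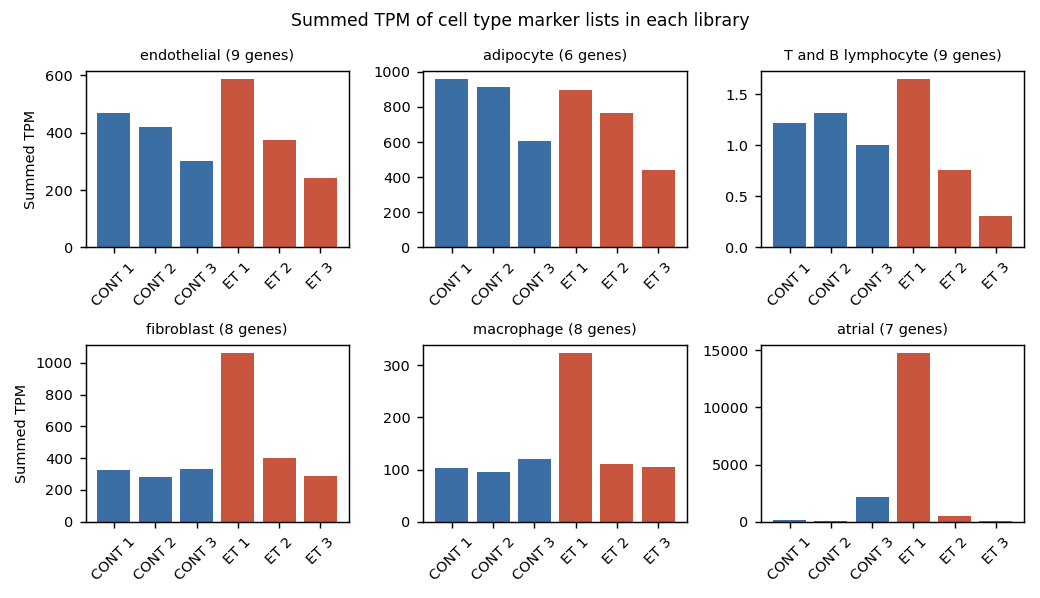
Summed TPM (y axes from 0) of 6 marker lists in each library. Endothelial and lymphocyte sums are higher in CONT replicates 1 and 2 and ET replicate 1 than in the other 3 libraries, the adipocyte sum is mostly Fabp4, and fibroblast, macrophage and atrial sums stand out in ET replicate 1.

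Other genes of the cell cycle were read from 5 lists, in which 0 genes passed the test across all genes. Of 46 other mitosis genes, 35 were tested and 29 of these were below 0, with a median of -0.39. By CPM 5 of the 35 were lower and 0 higher without overlap (8.36% and 6.89% of all genes). Cenpa, the histone variant that marks the centromere, was at 15.2, 13.5 and 21.97 TPM in CONT replicates 1 to 3 and 11.4, 11.5 and 10.7 TPM in ET replicates 1 to 3, without overlap, and had -0.62 ± 0.14 (edgeR adjusted p 0.478). Ncapd2, a condensin subunit, was at 9.23 ± 1.37 TPM in CONT and 6.62 ± 2.55 in ET (SD, n = 3 per group), with -0.42 ± 0.14. Of 34 tested of 35 other replication genes, 25 were below 0, with a median of -0.23, and by CPM 6 were lower and 2 higher without overlap (8.36% and 6.89% of all genes). Dut, which removes dUTP, had -0.46 ± 0.12, and Gins2, a subunit of the replicative helicase complex, had -0.54 ± 0.17 with 67.3% of its exon bases overlapping an opposite-strand gene.

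Regulators showed values in both directions. Of 17 tested of 19 pocket protein, E2F and MuvB genes, 9 were below 0, with a median of -0.013. Foxm1, the factor that switches on mitotic genes, was at 0.51, 0.49 and 0.33 TPM in CONT replicates 1 to 3 and 0.42, 0.06 and 0.09 TPM in ET replicates 1 to 3 (-1.52 ± 0.68, edgeR adjusted p 0.574), with ET replicates 2 and 3 lowest. Rbl2, the pocket protein p130 of resting cells, was at 4.9, 5.49 and 9.58 TPM in CONT and 11.5, 11.5 and 11.9 TPM in ET, with 0.71 ± 0.25 and an opposite-strand overlap of 21.0% of its exon bases. By CPM its groups overlapped, and 0 tested genes of this list were higher without overlap. Of 10 D cyclins and G1 kinases, 7 were below 0 (median -0.21). By CPM 0 of the 10 were lower and 1 higher without overlap (8.36% and 6.89% of all genes). Cdk2, the partner of cyclin E, had -0.41 ± 0.21, and Myc, a growth-promoting factor, was at 1.52, 0.99 and 2.02 TPM in CONT and 4.6, 3.38 and 8.95 TPM in ET, without overlap (1.82 ± 0.48). Of 15 tested of 17 CDK inhibitors and antiproliferative genes, 11 were above 0, with a median of 0.19. By CPM 0 of the 15 were lower and 4 higher without overlap, beside the same shares of all genes. Cdkn1a, the inhibitor p21, was at 6.07, 10.4 and 9.38 TPM in CONT and 23.6, 24.4 and 28.9 TPM in ET, without overlap (1.40 ± 0.28, edgeR adjusted p 0.427), with 7.68% of its exon bases overlapping an opposite-strand gene. Cdkn1c, the inhibitor p57, had -0.69 ± 0.22, with 30.7% of its exon bases in such an overlap. By TPM, Cdkn1a and Myc separated the libraries by group and not by set. Myc was named for its low p in this same comparison, and Cdkn1a was fixed with earlier results known. Their separation by group is therefore no independent result.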

How the data were processed

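Per the submitters' processing notes, STAR 2.7.0f, RSEM 1.2.31 and the mm10 genome were used upstream, and the annotation release is not given in the sources used here. The authors deposited expected counts per gene, not normalized, and TPM with FPKM in a file per library. Expected counts were rounded for the count tests, TPM served for levels, and the ratio of expected counts to deposited FPKM gave effective lengths, shown for members with an FPKM of at least 0.2 in each library.

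Genes passing edgeR's filterByExpr (minimum count 10, minimum total 15) were compared with the quasi-likelihood test of edgeR (robust, two-sided), with TMM scaling, no covariate, Benjamini-Hochberg adjustment over all 15727 genes and a threshold of 0.05. SE is the log2 fold change divided by the square root of F. CPM were scaled by the same factors, and log2 CPM differences within sets used a prior count of 0.5. The libraries were put into sets by average-linkage clustering of log2 effective lengths of 9657 genes (FPKM of at least 1 and 100 counts in each library). Libraries of a group differed beyond sampling noise (chi-square from 18.8 to 190 per gene), and each counted as 1 sample. Replicate numbers follow accession order and pair nothing.

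Named are, for each role, the 2 members with the lowest p and the member with the highest mean TPM, and of each other list at most the 2 genes of lowest p and Cdkn1a. Other members are named with single values for completeness, after their values were seen. The members and lists were chosen with earlier results of these data known. Alternatives were other scalings (RLE, upper quartile, library totals), filters and tests (DESeq2, limma-voom, limma on log2 TPM), removal of mitochondrially encoded genes, leaving out libraries, and a term for the sets. Besides the lists in the text, marker sums in TPM over the libraries were 171.7 to 391.7 (mural), 124.8 to 982.9 (erythroid) and 19.0 to 284.9 (skeletal muscle, mostly Acta1). Only the edgeR test was tried on simulated data. Software comprised DESeq2 1.42.0, limma 3.58.1 and edgeR 4.0.16 in R 4.3.3, with matplotlib 3.10.9 and pandas 2.3.3 in Python 3.11.15. Coordinates and exon overlaps come from GENCODE vM21 (GRCm38), which held all 38 members.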

Additional observations from a re-analysis of the deposited data

How the results depend on the processing

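Across all genes edgeR called 0 genes in each of its fits with at least 5 libraries (1360 at an unadjusted p under 0.05 in the reported fit), DESeq2 called 184, limma-voom 0 (1267 at an unadjusted p under 0.05), limma on log2(TPM + 1) 0 (1393), and limma on log2(TPM + 0.1) with a mean TPM of at least 0.5 called 2. None of those calls was a member. Without CONT replicate 3 and ET replicate 1 together, edgeR called 828 genes and 6 members, and the members' median was -1.33; group and set coincide there. Leaving out 1 library gave 0 calls each time and a median over the members from -1.05 to -0.42, with 28 to 36 of 36 below 0. Stricter filters keep fewer members: with a CPM of at least 1 in 3 libraries, 20 were tested (median -0.25), and with a mean TPM of at least 0.5, 17 were (median -0.050 on log2(TPM + 1) and -0.11 on log2(TPM + 0.1)). In these the median of the mitotic members was -0.97, -0.33 and -0.79. It rested on 9, 7 and 7 mitotic members, where 24 were tested in the reported fit. The median of all genes moved to 0.12 with library totals, 0.15 on log2(TPM + 1) and 0.18 on log2(TPM + 0.1), and the mitotic median with library totals was -0.76.

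Of 321 values of the 18 named members under alternatives, 306 kept direction and call, 5 passed the threshold in the fit without both libraries (Ccnb2, Ccna2, Mki67, Top2a and Prc1), and 10 changed sign, of Pcna, Ccne2 and Cenpf. Pcna was -0.019 with upper-quartile scaling, -0.022 with the set term, -0.025 without CONT replicate 2, and from -0.050 to 0.108 when each library was left out in turn. Ccne2 was 0.035 with library totals, 0.016 with the set term, 0.019 without ET replicate 2, and from -0.469 to 0.048 over the left-out libraries. Cenpf was from -0.823 to 0.066 over the left-out libraries, above 0 without ET replicate 1, and 0.062 without both libraries. Their causes were not tested beyond the library named. Adjusted p ranged from 0.0166 to 1.

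Low counts limit the mitotic members, many of which had under 30 counts in a library. No paired analysis was possible because the labels carry no replicate numbers.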
